A study of Mus musculus with 80 samples.

Results

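Mouse embryonic stem cells (ES cells) that carry 1 conditional copy of Sall1 were compared with cells in which that copy was deleted as well. The comparison holds 2 of the 80 samples of the series: 1 RNA-seq library labelled Sall1flox/- (Sall1 het) and 1 labelled Sall1 delta/- (Sall1 KO). Both share 1 inactive Sall1 allele, written "-", so the difference between the groups is the second allele, floxed in one and deleted (delta) in the other. The labels give the strain as C57BL/6J and the RNA as total RNA; the growth protocol attached to them describes TT2 cells, an ES cell line, kept in LIF without feeder cells, and names no separate conditions for these 2 libraries. Which exons the deletion removes, how it was induced, and whether each line is 1 clone are stated in no label. Beside this pair, 4 further libraries with the same gene annotation are used as a reference: the library labelled DKO (Sall1-/-/Sall4-/-), its wild-type control, and Sall4 KO cells transfected with mutant or with wild-type Sall4A (for the mutant, the library labelled replicate 1). Each table gives FPKM (fragments per length of transcript and per total of mapped fragments) per gene; read totals are not given, so the depth behind each value is unknown. With 1 library a side there is no replicate check anywhere below, and no difference was tested.

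SALL1 and SALL4, members of the Spalt-like family, bind DNA through zinc fingers. They recruit the NuRD histone deacetylase complex through a short N-terminal motif. SALL4 is needed for ES cell self-renewal, and SALL1, which ES cells also express, is best known from kidney and limb development and from Townes-Brocks syndrome. ES cell cultures contain a small share of cells in a transient state that resembles the cleavage-stage embryo and transcribes the Zscan4 cluster, a group of near-identical SCAN-domain zinc-finger genes.

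The 2 libraries were nearly alike. Values were divided by a median-ratio scale factor, and the ratio of a gene is the difference of log2(FPKM + 1), KO minus het, which understates differences of low genes. Of 18370 protein-coding entries, 7263 were at 5 FPKM or more in at least 1 of the 2 libraries. Of these, 5 were 2-fold higher in the KO library (0.0688%) and 2 were 2-fold lower (0.0275%). The counts changed with the settings: there were 1 and 1 with a pseudocount of 5, 1 and 1 with a filter at 20 FPKM, and 4 and 0 without entries that share a locus with another entry. At 1.5-fold, a limit added after the 2-fold counts were seen, 22 genes were higher (0.303%) and 14 were lower (0.193%). Among those 36 genes, 14 of the 22 higher ones were histone genes and 4 of the 14 lower ones were Zscan4 genes. Of all 7263 genes, 47 had such histone names and 4 were Zscan4 genes. Near-identical copies are counted separately in these numbers. The middle 90% of all log2 ratios lay between -0.21 and 0.22, and their SD over genes was 0.14.

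**Figure D1:**
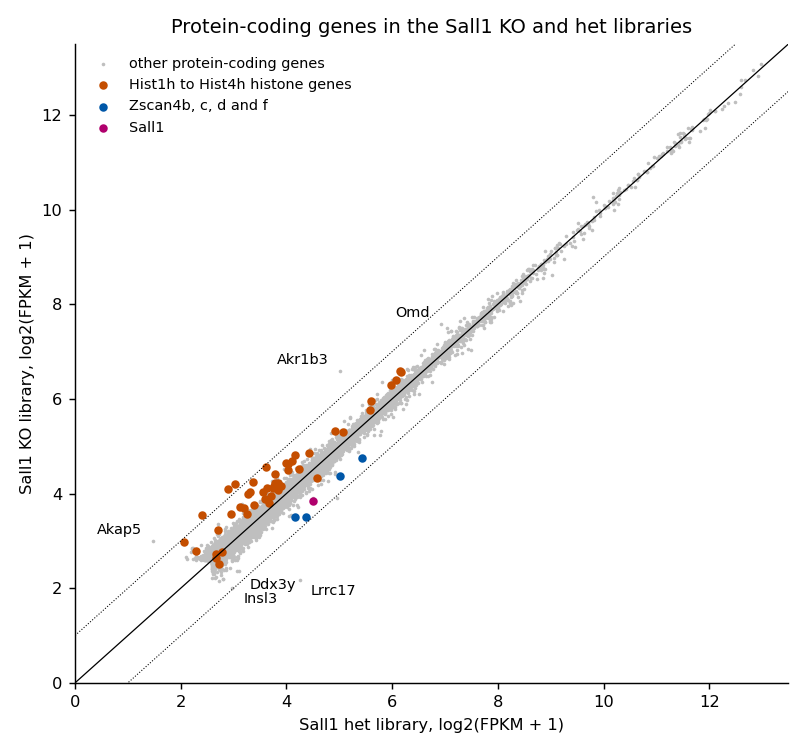
Each point is 1 of 7263 protein-coding genes, with log2(FPKM + 1) in the Sall1 het library on the x axis and in the Sall1 KO library on the y axis. The solid line marks equal values and the dotted lines 2-fold differences. Most histone genes (orange) lie above the line, while Zscan4 genes (blue) and Sall1 (magenta) lie below it.

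The other pairs of the same annotation were spread more widely. The SD of the log2 ratio was 0.57 for DKO over its control (7661 genes, 530 of them 2-fold apart, 6.92%), and 0.32 for KO plus mutant over KO plus wild type (7194 genes, 116 of them 2-fold apart, 1.61%). The DKO control and the Sall1 het library, which carry no complete Sall1 or Sall4 deletion by their labels, differed with an SD of 0.65 (755 of 7644 genes 2-fold apart, 9.88%). The Sall1 pair was therefore the narrowest of the 4 pairs. Culture date, cell clone and sequencing run are not labelled, so the part of each in these spreads was not tested.

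**Figure D2:**
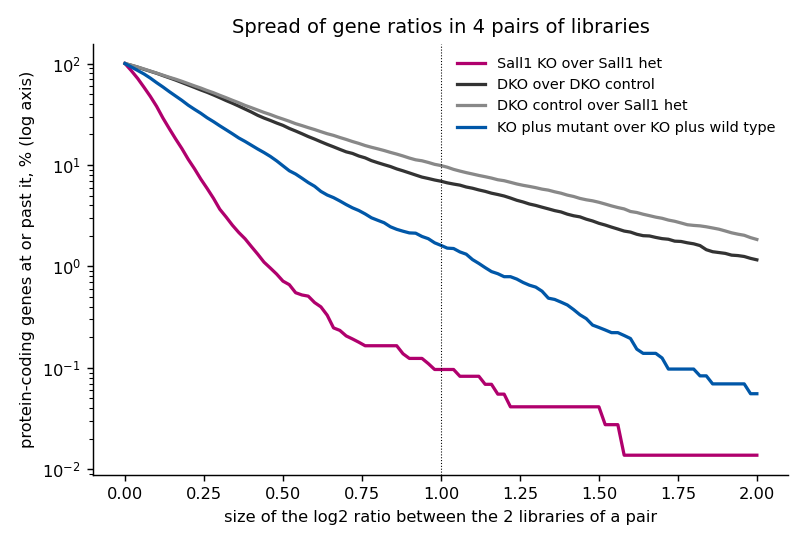
The x axis gives a size of log2 ratio and the y axis, on a log scale, the percentage of protein-coding genes at or past that size, for 4 pairs of libraries. At the dotted line (2-fold) the Sall1 pair stands at 0.0964%, below the 1.61% to 9.88% of the other 3 pairs.

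Sall1 itself, at chr8:91551142-91568061 (mm9), was at 21.8 FPKM in the het library and 13.3 in the KO library, a log2 ratio of -0.67. The KO library was thus at 60.9% of the het level, and Sall1 ranked eighth from the bottom among the 7263 genes. For comparison, Sall1 was at 13.9 FPKM in the DKO control and 2.27 in the library labelled DKO, and at 43.9 and 48.8 in the Sall4 KO cells with mutant and wild-type Sall4A. The KO value was close to that of the DKO control, whose label names it wild type. Transcripts that lack the deleted exons would still be counted in a gene-level value, so the table cannot say how much intact Sall1 RNA is left. The 47 protein-coding genes within 5 Mb of Sall1 that passed the filter had a median of 0.01 and ran from -0.24 to 0.31, so Sall1 stood outside the range of its neighbours.

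The paralogs and partners of Sall1 showed small ratios. Sall4 was at 18.6 FPKM in the het library and 17.8 in the KO library (log2 ratio -0.06), and Sall2 at 5.78 and 5.71 (-0.02). Sall3 was below the filter in both, at 0.26 and 0.38. The TET dioxygenases convert 5-methylcytosine to 5-hydroxymethylcytosine and its further oxidised forms. Of them, Tet1 was at 13.03 and 12.38 FPKM (-0.07), while Tet2 (4.41 and 4.54) and Tet3 (0.68 and 0.64) did not reach the filter. In the library labelled DKO, by contrast, Sall4 was at 109.2 FPKM against 17.6 in its control, although the label names Sall4 as deleted. The direction of the DKO comparison is therefore given below only as that of the libraries so labelled.

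Among 12 of 13 NuRD subunits that passed, 7 were above 0 and 5 below, with a median of 0.00, against 0.00 over all 7263 genes. Mbd2, a methyl-CpG reader of that complex, had the ratio of greatest size at -0.33 (8.58 and 6.61 FPKM), and Hdac1 was at 192.7 and 187.8 (-0.04). Of 20 genes for cytosine methylation and oxidation, 16 passed and 9 were above 0 (median 0.03). The de novo methyltransferase Dnmt3a was at 18.8 and 23.2 FPKM (0.29) and its cofactor Dnmt3l at 152.9 and 182.0 (0.25). None of these genes was 1.5-fold apart.

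The libraries carried the markers of undifferentiated ES cells at like levels. Pou5f1, the central pluripotency factor, was at 824.4 FPKM in the het and 853.0 in the KO library (0.05), Nanog at 277.0 and 277.9 (0.00), and Sox2 at 210.3 and 187.6 (-0.17). All 11 core pluripotency genes passed, with a median of 0.05 and 7 above 0; the lowest was Fbxo15, an Oct4 target, at 107.2 and 80.9 FPKM (-0.41). Of 18 naive pluripotency genes 16 passed, 5 above 0 and 11 below (median -0.08), against 51.2% above 0 over all protein-coding genes. Klf2 (149.5 and 122.8 FPKM, -0.29) and Nr0b1 (43.0 and 35.4, -0.28) were the lowest of that list, and Fgf4, at 40.9 and 46.9, the highest (0.19). Of 15 primed epiblast genes 10 passed (median 0.10, 6 above 0). None of these 3 lists held a gene 1.5-fold apart.

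The marker lists of differentiated cell types held no gene 1.5-fold apart, and several of their genes were expressed. No primitive streak and mesoderm gene of 16 and no Hox gene of 31 reached 5 FPKM in either library. Of 20 primitive endoderm markers, 3 passed, all extracellular matrix genes (Sparc, Lamb1 and Lamc1), while Gata6, Sox17 and Gata4 stayed below 1 FPKM. The trophoblast factors Cdx2, Elf5 and Gata3 also stayed below 1 FPKM, and 6 of 16 genes of that list passed, with a median of 0.18. Of 12 epithelial and liver markers 7 passed, with a summed level over the list of 593.4 FPKM in the het and 608.2 in the KO library and a median of 0.06. The highest was Apoe at 283.1 and 279.1 FPKM, followed by the adhesion molecule Epcam at 117.5 and 123.4, while the liver genes Alb and Fgb were listed at 0 in both. Of the 12 blood and endothelial markers with an entry, 2 passed: Pecam1 at 10.8 and 8.99 FPKM and Laptm5 at 5.39 and 5.64, and Hba-x was listed at 0 in both. Fibroblast markers were present: 10 of 18 passed, among them Col1a1 at 21.6 and 20.1 FPKM and Vim at 131.3 and 117.6. Their summed level was 640.1 FPKM in the het and 582.0 in the KO library. Of the 10, 2 were above 0 (median -0.11), against 51.2% of all protein-coding genes. The 8 markers below the filter all had a negative ratio, but no share over all genes below the filter is given here. Whether fibroblasts or differentiated cells were present in the cultures was not tested, nor was their part in the ratios of other genes.

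The list of 18 kidney and limb genes linked to SALL1 was almost silent in these cells. Of these genes 4 passed, with a median of -0.20. Wt1, a zinc-finger factor of kidney progenitors, was at 5.63 FPKM in the het and 4.48 in the KO library (-0.28). Six4 was at 5.33 and 4.80 (-0.13) and Crym at 5.53 and 6.18 (0.13). The values of these 3 genes lie near the filter, and 2 of the 4 genes passed it through the het library alone. Six2, a marker of nephron progenitors, was at 0.34 and 0.29 FPKM.

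**Figure D3:**
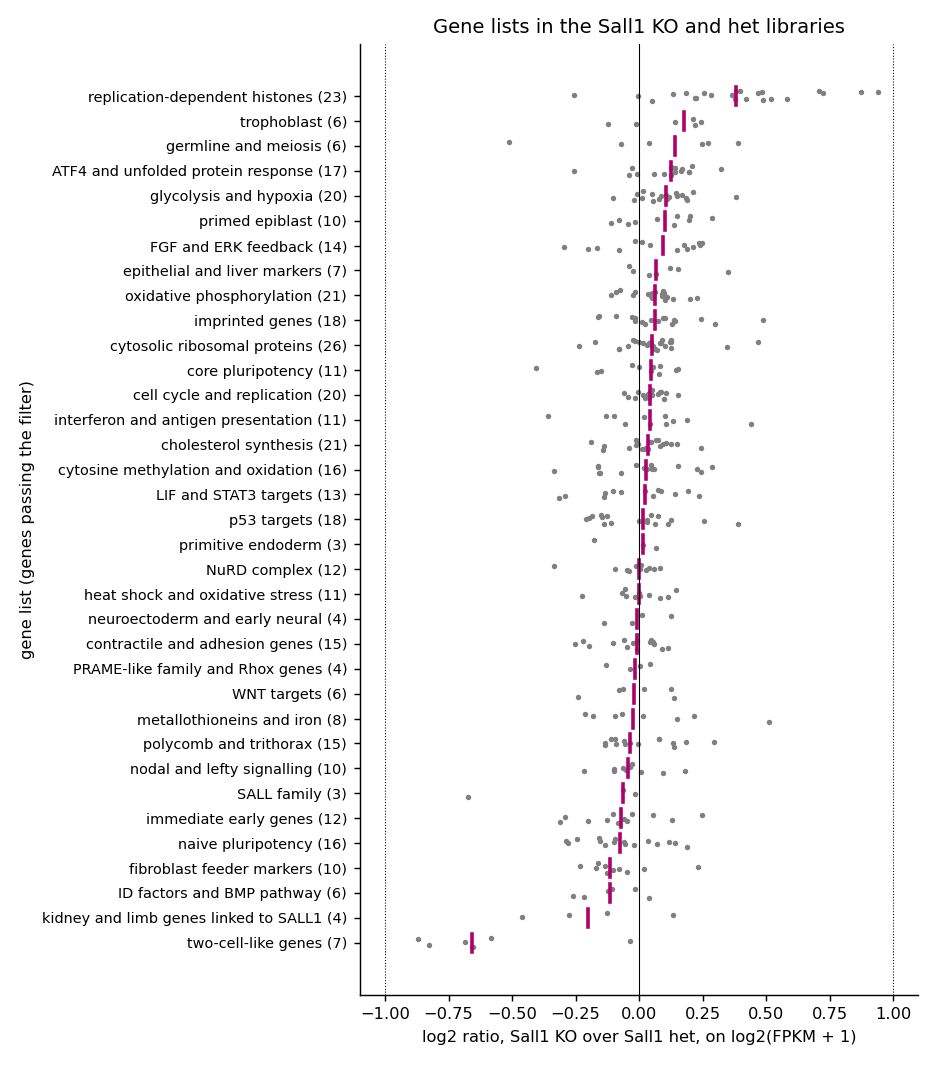
Each point is 1 gene of a list that passed the filter, placed by its log2 ratio, Sall1 KO over Sall1 het, on the x axis; each row is a list with its number of genes, and the magenta bar is the median. Lists with fewer than 3 such genes are not drawn. The two-cell-like list has the lowest median (-0.66) and the replication-dependent histones the highest (0.38), while the other medians lie between -0.20 and 0.18.

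Of the 39 gene lists, the one with the lowest median was that of genes expressed in the cleavage-stage embryo. Of 16 genes 7 passed the filter: 6 Zscan4 entries and Eif1a. All 7 were below 0, against 48.8% of all protein-coding genes. Their median of -0.66 is the ratio of a Zscan4 entry, Zscan4c. The 4 protein-coding Zscan4 entries lie in 1 cluster on chromosome 7. Zscan4d was at 19.8 FPKM in the het and 10.4 in the KO library (-0.87). Zscan4f was at 42.0 and 25.8 (-0.69), Zscan4c at 31.4 and 19.6 (-0.66), and Zscan4b at 16.8 and 10.4 (-0.65). All 4 stood among the 15 lowest ratios of the 7263 genes. Zscan4a (21.8 and 11.9 FPKM, -0.83) and Zscan4e (17.5 and 11.4, -0.58), which RefSeq classes as pseudogenes, had ratios of the same direction. The copies share most of their sequence, so reads may be split among them and the 6 entries are not 6 independent measurements. The ratio of Eif1a was -0.04 (70.8 and 69.2 FPKM).

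The other 9 genes of that list were below the filter, 7 with a negative ratio and 2 (Tcstv1 and Tcstv3) listed at 0 in both. Among the 7 were Dux, a homeobox activator of cleavage-stage genes, at 0.54 and 0.45 FPKM, and Zfp352 at 0.71 and 0.39. No share below 0 is given here for all genes under the filter, so these 7 directions have no base beside them. Apart from the Zscan4 entries, only Eif1a passed, at -0.04. In these bulk libraries, fewer cells of a type and less RNA per cell cannot be told apart. Zscan4 levels also differed widely among the other libraries. Zscan4f was at 132.4 FPKM in the DKO control and 63.2 in DKO, and at 45.4 and 15.2 in the Sall4 KO cells with mutant and wild-type Sall4A. Both Sall1 libraries thus lay between those extremes, and neither the het nor the KO library was the highest or lowest of the 6 for any of the 4 protein-coding Zscan4 genes.

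Because these genes had like ratios, stretches before their annotated starts are shown (RefSeq, GRCm38.p6, whose coordinates differ from the mm9 positions of the expression tables). Each is a 100-base stretch aligned on the letters TATAAA and taken from within the 250 bases before the start: chr7:10905052-10905151 on the minus strand for Zscan4b, chr7:11005621-11005720 on the plus strand for Zscan4c, chr7:11166184-11166283 on the minus strand for Zscan4d and chr7:11397814-11397913 on the plus strand for Zscan4f. Capitals mark TATAAA and CCAAT.
Zscan4b: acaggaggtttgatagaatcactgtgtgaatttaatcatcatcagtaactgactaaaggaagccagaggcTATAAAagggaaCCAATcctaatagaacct
Zscan4c: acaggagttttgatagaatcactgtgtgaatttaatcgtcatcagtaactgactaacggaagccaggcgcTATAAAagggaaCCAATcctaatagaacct
Zscan4d: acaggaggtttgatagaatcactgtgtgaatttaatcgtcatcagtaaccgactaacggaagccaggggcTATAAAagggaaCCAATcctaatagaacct
Zscan4f: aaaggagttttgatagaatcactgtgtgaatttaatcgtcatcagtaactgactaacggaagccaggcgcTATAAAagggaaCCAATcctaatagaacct
Any 2 of the 4 stretches were identical at 94 to 99 of the 100 positions, Zscan4c and Zscan4f being the closest pair. The shared place of TATAAA follows from the alignment. A link between the upstream letters and the like ratios was not tested.

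Of the 39 gene lists, the one with the highest median was that of the replication-dependent histones, the core and linker histones made in S phase from clustered genes whose mRNAs end in a stem-loop rather than a poly(A) tail. Of 30 genes 23 passed, 21 above 0 and 2 below, against 51.2% above 0 over all protein-coding genes. Their median was 0.38, and 4 of the 23 were 1.5-fold higher in the KO library. No member of the list reached 2-fold. The list's summed level was 390.2 FPKM in the het and 512.6 in the KO library.

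All protein-coding entries named Hist1h to Hist4h were also taken, a set added after these genes had been seen among the highest ratios. Of 63 such entries 47 passed, and 43 of the 47 were above 0 (median 0.42), against 51.2% of all protein-coding genes. Of the 47, 3 passed through the KO library alone, and the median of the other 44 was 0.39. The H2B genes had the highest median of the 5 types, 0.59 over 13 genes. Of those 13, 7 were 1.5-fold higher, against 0.303% of all protein-coding genes. The H1 genes stood at 0.48 (3 genes), H3 at 0.47 (9 genes), H2A at 0.39 (11 genes) and H4 at 0.37 (11 genes). All 11 H2A, all 9 H3 and all 3 H1 genes were above 0. The 4 entries below 0 were Hist1h2bc (23.0 and 19.2 FPKM, -0.26), Hist2h4 (-0.21), Hist3h2ba (-0.04) and Hist1h4c (-0.01).

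The histone genes with the highest ratios came from both main clusters. On chromosome 13, Hist1h4f was at 6.43 FPKM in the het and 16.1 in the KO library (1.20), Hist1h4h at 4.30 and 10.6 (1.13), Hist1h2bf at 11.3 and 22.7 (0.94) and Hist1h3e at 9.36 and 18.0 (0.87). On chromosome 3, Hist2h3b was at 7.13 and 17.3 FPKM (1.17) and Hist2h2bb at 14.8 and 24.0 (0.66). Histone copies of 1 type are near-identical in their coding sequence, so the split of reads among single entries is uncertain. Hist2h2aa2 (3.19 and 6.83 FPKM, 0.90) has the same locus as a joined entry of the 2 copies Hist2h2aa1 and Hist2h2aa2, at 8.11 and 10.46.

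The KO library was the highest of the 6 libraries for 21 of the 47 histone genes (44.7%), against 15.9% of all protein-coding genes. This set was added after its genes were seen among the highest ratios, and 3 of the 47 passed through the KO library alone. The share of 44.7% is therefore partly fixed by that choice, and near-identical copies are counted separately in it. By type this held for 11 of 13 H2B genes and for none of the 11 H2A genes. Hist2h2bb showed the widest gap, with 14.8 and 24.0 FPKM in the Sall1 pair against 0.98 to 4.95 in the other 4 libraries. Hist1h2bf stood at 11.3 and 22.7 against 1.98 to 4.96. For these H2B genes the het library was also above the other 4, so the pair as a whole stood apart from them.

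**Figure D4:**
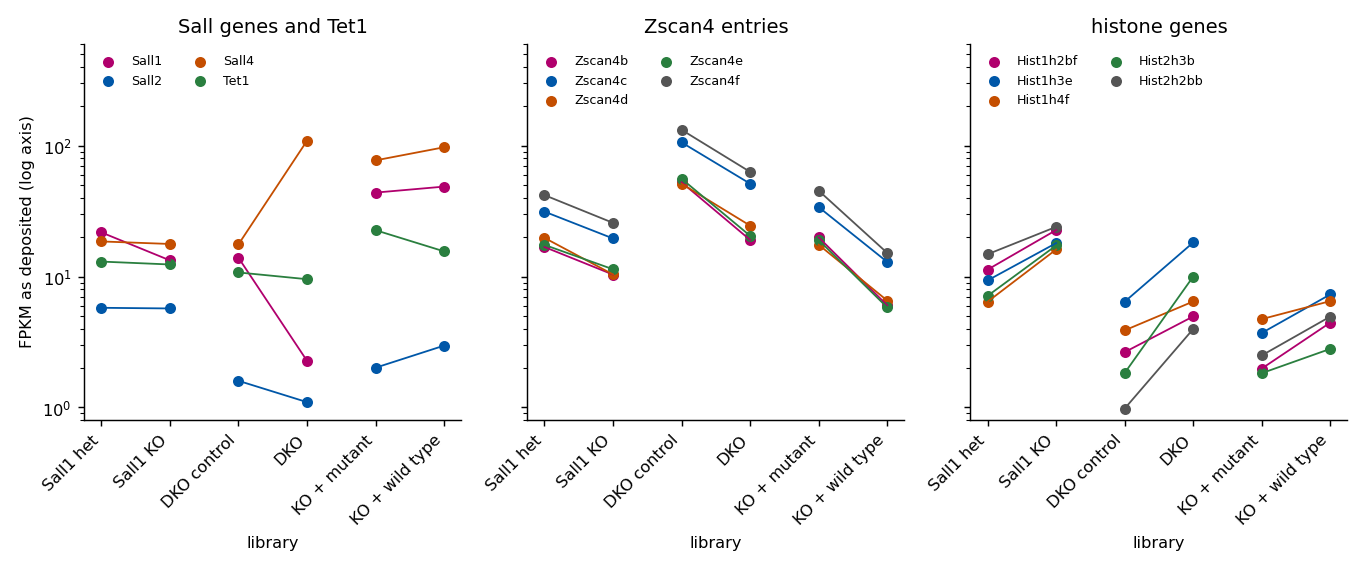
FPKM as deposited (y axis, log scale) in 6 libraries (x axis) for Sall1, Sall2, Sall4 and Tet1, for 5 Zscan4 entries and for 5 histone genes; lines join the libraries of a pair and each point is 1 library. Zscan4 entries are lower and histone genes higher in the second library of every pair drawn, while Sall1 is lower in Sall1 KO and in DKO only.

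Genes of the cell cycle had smaller ratios. All 20 cell cycle and replication genes passed, 16 above 0, against 51.2% of all protein-coding genes. Their median was 0.04 and none was 1.5-fold apart. Mcm2, a subunit of the replicative helicase, was at 116.4 FPKM in the het and 125.0 in the KO library (0.10), and Ccne1, a cyclin of S-phase entry, at 118.2 and 127.4 (0.10). The replacement histone variants, chosen after the histone values were seen, are also made outside S phase, from polyadenylated mRNAs. Of 6 such genes 3 were above 0 and 3 below (median -0.02). H2afz was at 1541 and 1418 FPKM (-0.12), H3f3a at 781.4 and 667.2 (-0.23) and H3f3b at 287.1 and 300.1 (0.06).

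Other RNAs without a poly(A) tail went both ways. Of 58 box C/D small nucleolar RNA entries (Snord) that passed, 12 were 2-fold higher and 10 were 2-fold lower in the KO library. Of 34 box H/ACA entries (Snora) these numbers were 4 and 3. Over all 206 small RNA entries that passed, 98 were 2-fold apart (47.6%), 44 higher and 54 lower. Some entries were listed at 0 in the het library only (6 Snord and 0 Snora) or in the KO library only (5 and 3). A set of 7 stable structured RNAs was chosen after seeing values, so its direction is fixed by that choice. Of these, 6 passed and had a median of 0.88. Rnu11 and Rnu12, RNAs of the minor spliceosome, were at 32.2 and 188.2 FPKM (2.51) and at 29.0 and 67.4 (1.18). Rmrp, the RNA of RNase MRP, was at 24.0 and 49.8 (1.02), the small repeat RNA Rn4.5s at 5825 and 9806 (0.75), and Rpph1, the RNA of RNase P, at 21.7 and 30.7 (0.48). The ribosomal precursor Rn45s was at 1623 and 1740 (0.10). The long nuclear RNAs Malat1 (69.7 and 67.6 FPKM, -0.05) and Neat1 (34.8 and 34.6, -0.01) were level. No source used here says how the RNA was selected before sequencing, and the part of RNA selection in the histone ratios was not tested.

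The letters before the starts of the 4 histone genes with the highest ratios, picked by those ratios, are shown to give the letters before the entries at the top of the group. They are the 150 bases before the annotated start (RefSeq, GRCm38.p6): chr13:23551669-23551818, minus strand, for Hist1h4f (now H4c6); chr3:96268504-96268653, plus strand, for Hist2h3b (H3c13); chr13:23530894-23531043, plus strand, for Hist1h4h (H4c8); chr13:23574208-23574357, minus strand, for Hist1h2bf (H2bc7). Capitals mark CCAAT on either strand, a box that many histone promoters hold.
Hist1h4f: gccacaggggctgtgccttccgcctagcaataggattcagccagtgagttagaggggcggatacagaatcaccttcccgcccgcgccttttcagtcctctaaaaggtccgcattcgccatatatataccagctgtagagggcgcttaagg
Hist2h3b: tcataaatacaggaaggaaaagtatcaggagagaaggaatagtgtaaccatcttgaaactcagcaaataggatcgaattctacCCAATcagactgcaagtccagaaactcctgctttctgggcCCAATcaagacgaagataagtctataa
Hist1h4h: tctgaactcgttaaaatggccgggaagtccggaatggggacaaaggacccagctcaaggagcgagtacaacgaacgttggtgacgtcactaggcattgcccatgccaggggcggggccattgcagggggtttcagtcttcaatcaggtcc
Hist1h2bf: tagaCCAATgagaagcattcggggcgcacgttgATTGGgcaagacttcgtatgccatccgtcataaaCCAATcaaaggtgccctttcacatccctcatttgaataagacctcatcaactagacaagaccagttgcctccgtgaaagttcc
Neither H4 stretch holds the letters CCAAT or ATTGG, whereas the stretches of Hist2h3b and Hist1h2bf hold several. Of the 23 listed histones that passed, 21 had a RefSeq window. In the 250 bases before the start, CCAAT was found on either strand in 19 of the 21, against 33.8% of 32851 windows of all genes. The octamer ATTTGCAT, searched in the same way, was in 5 of the 21, 2 of them among the 4 H2B windows, against 1.60% of all windows. TATAAA was in 12 of the 21, against 12.4%. These are matches of letters and not mapped binding sites.

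The 2 genes with the highest ratios were no histones. Akr1b3, an aldo-keto reductase of the polyol pathway, was at 31.2 FPKM in the het and 94.9 in the KO library (1.57), against 19.4 to 47.9 in the other 4 libraries. It has the same locus in the table as the predicted gene Gm6644, which was at 192.4 and 166.3, so the assignment of reads between both is uncertain. Akap5, a scaffold protein for protein kinase A, was at 1.78 and 6.95 (1.51), against 0.93 to 5.14 in the other 4. The remaining genes in the 15 highest that are no histones were Omd, an extracellular proteoglycan (119.7 and 189.4 FPKM, 0.65), Fam177a (5.50 and 9.20, 0.65) and Cda, cytidine deaminase (3.61 and 6.16, 0.63). Omd has the same locus as 4 other genes, 1 of them the centromere gene Cenpp at 23.3 and 17.2 (-0.43), and Fam177a as 3 copies of Srp54.

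On the lower side, Lrrc17, a secreted leucine-rich repeat protein, had the lowest ratio, at 18.1 FPKM in the het and 3.49 in the KO library (-2.09). In the other libraries Lrrc17 ranged from 0.64 to 55.7 FPKM. Insl3, an insulin-like peptide, was at 6.87 and 3.00 (-0.98) and has the same locus as the kinase Jak3, at 7.17 in both. Lrrc17 has the same locus as Fbxl13, which was under 0.1 FPKM in both. The list of the 15 lowest also held Pts, an enzyme of tetrahydrobiopterin synthesis (7.31 and 4.17, -0.69), the ubiquitin hydrolase gene Uchl4 (-0.62), Zfp951 (-0.61), Pdgfc, a growth factor (5.62 and 3.41, -0.59), and Hscb, a co-chaperone of iron-sulphur cluster assembly (15.9 and 10.7, -0.54). Of the 7 genes at 2-fold, 3 share their locus with another entry (42.9%), against 16.2% of all 7263.

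Of 9 Y-linked genes, 2 passed: Ddx3y, an RNA helicase gene, at 7.61 and 4.14 FPKM (-0.75), which passed through the het library alone, and Eif2s3y, a translation factor gene, at 49.4 and 40.1 (-0.30). Uty was below the filter at 3.94 and 3.50. The medians of the autosomes and the X chromosome lay between -0.04 (chromosome 8, 409 genes) and 0.03 (chromosome 7, 573 genes). Chromosome 13, which carries the main histone cluster, had a median of 0.01 over 276 genes but 12 of the 22 genes that were 1.5-fold higher.

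Metabolic and stress lists differed little, with most members on 1 side in some of them. Over all 7263 protein-coding genes 51.2% were above 0, and the SD of the ratios was 0.14, larger than each list median given here. Of 20 glycolysis and hypoxia genes that passed, 17 were above 0 (median 0.11). Vegfa, a hypoxia-induced growth factor, was at 13.1 and 17.5 FPKM (0.38) and Gpi1, a glycolytic isomerase, at 181.9 and 211.2 (0.21). Of 17 ATF4 and unfolded protein response genes, 13 were above 0 (median 0.13), Chac1 the highest at 15.7 and 19.9 (0.32). Of 21 oxidative phosphorylation genes, 16 were above 0 (median 0.06), and of 26 cytosolic ribosomal proteins 18 (median 0.05). On the other side, 1 of 6 ID and BMP pathway genes was above 0 (median -0.12), with Id3 at 27.9 and 23.2 FPKM (-0.26) and Id1 at 14.3 and 12.2 (-0.22). Of 12 immediate early genes 3 were above 0 (median -0.07), with Fosb at 18.2 and 14.5 (-0.31) and Fos at 61.9 and 50.6 (-0.29). None of these lists held a gene 1.5-fold apart.

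The highest or lowest members of some further lists, picked by their ratios, were these. Sycp3, a protein of the meiotic chromosome axis, was at 29.3 FPKM in the het and 20.3 in the KO library (-0.51), while the germline list had a median of 0.14 over 6 genes. Nnat, an imprinted gene, was at 20.9 and 29.7 (0.49), in a list with a median of 0.06 over 18 genes. Rpl26 was at 890.1 and 1236 FPKM (0.47), Psmb8, a subunit of the immunoproteasome, at 6.201 and 8.808 (0.44), and Ifitm3, an interferon-induced membrane protein, at 343.6 and 268.4 (-0.36).

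The library labelled DKO and its control share no sample with the Sall1 pair, so its ratios are given beside those above. Of the 22 genes 1.5-fold higher in Sall1 KO, 10 were also 1.5-fold higher in DKO (45.5% of the 22 and 1.23% of the 813 in DKO), where 10.6% of all tested genes were. They were Akap5 and 9 histone genes, and Hist2h3b was the only gene 2-fold higher in both, among 5 such genes in Sall1 KO and 322 in DKO (4.2%). Of the 14 genes 1.5-fold lower in Sall1 KO, 7 were also 1.5-fold lower in DKO (50% of the 14 and 1.11% of the 631), where 8.24% of all tested genes were. Among them were Sall1, Zscan4b, Zscan4c, Zscan4d, Zscan4f and Uchl4. These shares count near-identical histone and Zscan4 copies as separate genes, and Sall1 is deleted by label in both Sall1 KO and DKO. Another 3 of the 14, Lrrc17, Pts and Pdgfc, were 1.5-fold higher in DKO. None of the 22 higher genes was 1.5-fold lower there, and neither of the 2 genes 2-fold lower in Sall1 KO was among the 208 of DKO (2.72%).

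In DKO over its control the log2 ratio of Sall1 was -2.17 and that of the 4 Zscan4 genes -1.01 to -1.39. Hist2h3b stood at 1.98 and Hist1h3e at 1.39, and 46 of the 47 histone genes were above 0, against 48.1% of the 7263 protein-coding genes. Many lists did not share their direction between the pairs. The ID and BMP genes had a median of -0.12 in the Sall1 pair and 0.80 in the DKO pair, the ATF4 genes 0.13 and -0.43, and the cholesterol synthesis genes 0.04 and -0.82. In the pair without a labelled difference in Sall1, KO plus mutant and KO plus wild type, the histone and Zscan4 genes that are plotted also differed: Zscan4c was at 34.0 and 12.95 FPKM, and Hist1h2bf at 1.98 and 4.45. For the plotted genes, 1 library of each of the 3 pairs had lower Zscan4 and higher histone values than the other. The plotted histone genes are among the highest ratios of the Sall1 pair, and the plotted Zscan4 entries are near-identical copies. No count over the other histone genes is given for KO plus mutant and KO plus wild type, and a cause was not tested.

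**Figure D5:**
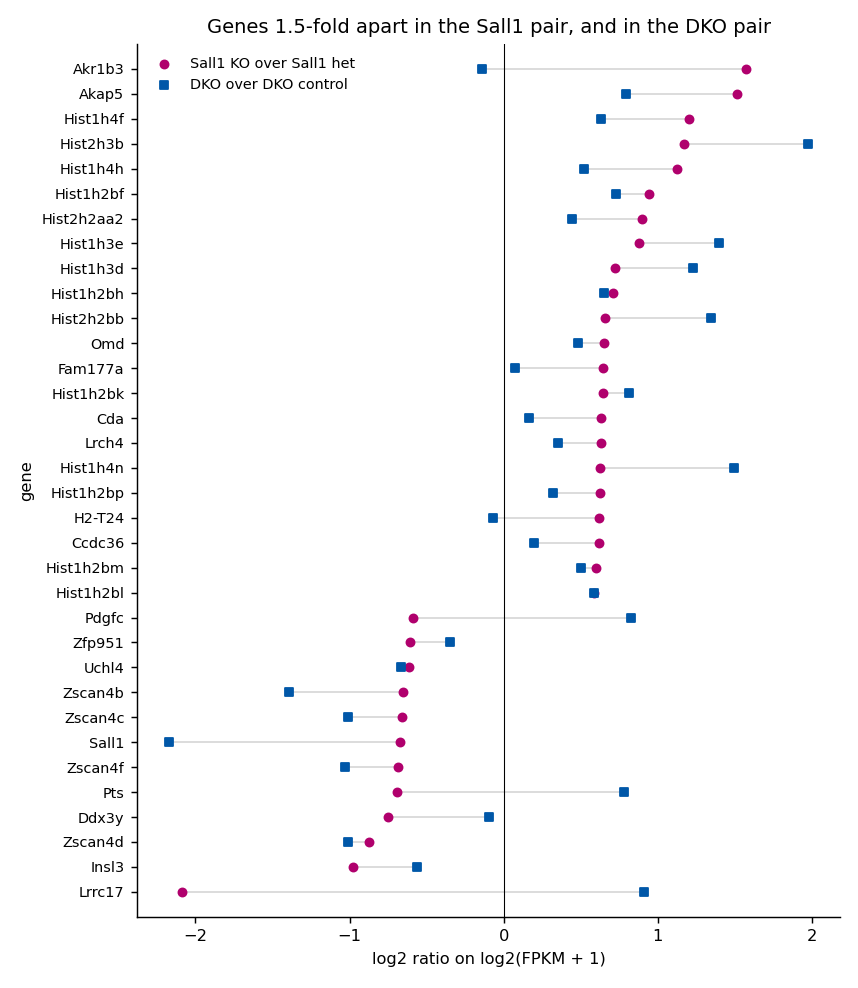
The x axis gives the log2 ratio on log2(FPKM + 1), and each row is 1 of 34 of the 36 protein-coding genes that were 1.5-fold apart in the Sall1 pair (magenta circles), with the DKO pair beside it (blue squares). Zscan4 genes and Sall1 lie left of 0 and the histone genes right of 0 in both, while Lrrc17, Pts and Pdgfc lie on opposite sides.

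Entries outside the protein-coding class behaved in different ways. Of 636 predicted and clone-named entries that passed, 4 were 2-fold apart (0.629%). Among these 4, Gm8615 was at 12.4 FPKM in the het and 1.71 in the KO library (-2.31). Of 42 other named non-coding entries that passed, 1 was 2-fold higher and 0 were 2-fold lower. The higher entry was Pisd-ps3, at 2.50 and 6.30 FPKM (1.06). Of 206 small RNA entries, 98 were 2-fold apart (47.6%), 44 higher and 54 lower, and 67 were listed at 0 in 1 of the 2 libraries. Snord45b, a box C/D small nucleolar RNA, was at 14529 FPKM in the het library and listed at 0 in the KO library. Snord66 was listed at 0 in the het library and at 865.7 in the KO library. Of 95 microRNA entries, 32 were listed at 0 in the KO library only and 19 in the het library only. FPKM divides by transcript length, so a few reads on a very short transcript give a high value, and these ratios are not counted with the genes above.

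The spread of the ratios also depended on level and length. When the protein-coding genes were cut into 3 parts of 2421 by mean FPKM, the SD was 0.16 in the part of lowest level, with 17 genes 1.5-fold apart, and 0.12 in that of highest level, with 3 genes. Cut by the length of the locus, the part with the shortest loci had a median of 0.02 and 20 of the 36 genes, and that with the longest loci a median of -0.02 and 9 of them. Histone genes, which have no introns, are among the shortest loci, and the part of transcript length in their ratios was not tested.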

How the data were processed

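RNA-seq of 2 mouse ES cell libraries was compared, with 4 libraries of the same annotation beside them. The authors deposited 1 FPKM table per library, with gene symbol and mm9 locus. Per the submitters' processing notes the series used TopHat, Bowtie 0.12.7, SAMtools and MACS 1.4.2; no source says which of them made these tables. The 23235 entries were classed by symbol through RefSeq (20599 by symbol, 2314 by synonym). Values were divided by median-ratio factors over genes at 1 FPKM or more in both libraries. Ratios used a pseudocount of 1, and genes at 5 or more in 1 of the 2 libraries were kept. The calculation was tested on simulated data. Named genes are the Sall and Tet genes, the 15 highest and 15 lowest protein-coding ratios, the leading members of 39 gene lists, and genes 2-fold the same way in DKO. A few genes that meet these rules are not reported here. The members and lists were chosen with earlier results of these data known. Counts were recomputed under other scalings, pseudocounts and filters. Total counts are not given, so no interval could be computed. Promoter windows came from RefSeq, GRCm38.p6. Python 3.11, pandas and numpy were used.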

Additional observations from a re-analysis of the deposited data

How the results depend on the processing

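The number of protein-coding genes 2-fold higher and lower in Sall1 KO was 5 and 2. It was also 5 and 2 with the values as deposited, with upper-quartile scaling and with equal sums over protein-coding genes. With a pseudocount of 5 it was 1 and 1, and with a filter at 20 FPKM 1 and 1. At the 1.5-fold limit, added after seeing the data, it was 22 and 14, and without entries that share a locus, also added, 4 and 0. Counted over all 8170 entries that passed, of every class, 51 were 2-fold higher and 59 lower. Small RNAs made up 44 and 54 of these. Sall1, the histone list and the two-cell-like list kept their direction under every scaling and pseudocount tried. Under a pseudocount of 5, 22 log2 ratios of single genes and medians of lists moved by more than the SD over genes, and under 0.1, 5 did; under the 3 other scalings none did. No paired analysis was possible because each side has 1 library. Leaving out a replicate was not possible for the same reason. Read depth is unknown here, so the counting error of low genes and small RNAs cannot be given.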
